A study of Mus musculus with 9 samples.

Results

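The genes described here encode Toll-like receptors and their signalling partners, from the receptor at the cell surface to the NF-kB transcription factors and the proteins that restrain them. The members are Tlr2, Tlr4, Cd14, Myd88, Nfkb1, Nfkb2, Rela, Relb, Nfkbia and Tnfaip3. They are 10 of the 55385 genes in the deposited table, and all 10 passed the filter on low counts, as did 21392 genes in all. The kidneys came from a study of hyperuricemic nephropathy (HN), a kidney disease induced in mice by adenine together with potassium oxonate, and of pectolinarigenin (PEC), a plant flavonoid given alongside. Poly(A) RNA of 9 kidneys was sequenced, with a separate library for each mouse, 3 mice per group. The labels give the strain as C57BL/6, and the study's methods as C57BL/6J, with males 8 to 10 weeks old. Control mice (replicates 2, 4 and 5) had neither HN nor treatment. HN mice (replicates 4, 8 and 12) received adenine at 0.16 g/kg and potassium oxonate at 2.4 g/kg every other day over 4 weeks, with no treatment. PEC mice (replicates 1, 2 and 3) received adenine and potassium oxonate in the same way and PEC by mouth each day. The labels give no PEC dose, and a dose of 25 mg/kg is taken from the study's legend. Control libraries bear HN mice in their titles too, although control is given as their disease state. The model combines a crystal-forming purine with an inhibitor of urate breakdown, so that effects of adenine and of urate cannot be told apart.

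Toll-like receptors recognise microbial products and molecules released by damaged cells, and Cd14 hands some of these ligands to them. Binding recruits the adaptor Myd88 and leads through kinases to the release of NF-kB, a family of dimeric transcription factors, from IkB proteins that hold it in the cytoplasm. NF-kB then induces chemokines, adhesion molecules and its own inhibitors, and in the kidney this pathway is known from tubule cells, endothelium and infiltrating leukocytes.

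Between 57714111 and 81069646 reads were counted on genes per mouse. The 3 PEC libraries stood apart in the share of counts on annotated ribosomal RNA genes, at 0.117%, 0.682% and 0.119% in replicates 1, 2 and 3, against 0.00163% to 0.00283% in the other 6 libraries. The labels name no batch, and anything that set the PEC libraries apart in preparation cannot be told apart from the group. Mitochondrially encoded genes took 12.9% to 16.3% of the counts in Control mice, 6.01% to 6.34% in HN mice and 10.3% to 13.6% in PEC mice. The deposited FPKM (fragments per kilobase of gene) are scaled by each library's total, whereas the tests below use TMM factors, which set the bulk of genes level between libraries. Scaling by totals in place of TMM moved the median of all tested genes, as a log2 difference, from -0.001 to 0.56 for HN against Control, from -0.02 to -0.21 for PEC against HN and from 0.05 to 0.40 for PEC against Control. A ratio of FPKM therefore shows a larger rise in HN, and a larger drop with PEC, than the log2 fold changes given here. Control 2, HN 12 and PEC 3 were the libraries of their groups with the highest summed FPKM of 4 adipocyte markers, at 14.0, 44.3 and 392.7, against 1.28 or less in each of the other 6. Its part in the members' values was not tested beyond the values without these 3 libraries.

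HN against Control asks what the disease model does to the pathway, PEC against HN what treatment adds, and PEC against Control what remains different under treatment. The comparisons share libraries with each other and are not independent. In HN mice 9 of the 10 members were called higher than in Control, where 17.7% of all tested genes were called higher, and the median log2 fold change was 1.68 for the members and -0.001 for all tested genes. A call needed a 1.5-fold or larger difference and an adjusted p of at most 0.05 in edgeR's quasi-likelihood test. No member was called lower in edgeR, where 14.7% of all genes were, and this count of 0 also held at an unadjusted p, in DESeq2 and in limma. Tlr4 was the member not called. In PEC mice 4 members were called lower than in HN (Tlr2, Cd14, Nfkb1 and Nfkbia), where 15.3% of all genes were called lower, with a median of -0.64 for the members and -0.02 for all genes. Called higher in PEC than in HN were 0 members by edgeR, also at an unadjusted p, in DESeq2 and in limma, and 13.4% of all genes. Against Control, 7 members were called higher in PEC mice, where 18.9% of all genes were, and the medians were 1.22 and 0.05. Called lower in PEC than in Control were 0 members by edgeR, also at an unadjusted p, in DESeq2 and in limma, and 17.4% of all genes, but fitting only these groups called Tlr4 lower. The number of members lower with PEC moved with the processing, to 7 with total-count scaling and to 8 on rescaled FPKM (TPM), and to 1 without HN 4 or 2 without PEC 1. All genes moved too, with 3266 called lower in the main fit, 4631 with total-count scaling and 7679 on TPM, each among the genes it tested. With 3 mice per group an exact permutation test of a single gene cannot go below p = 0.10, so tests that pool the spread over genes were used.

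**Figure D1:**
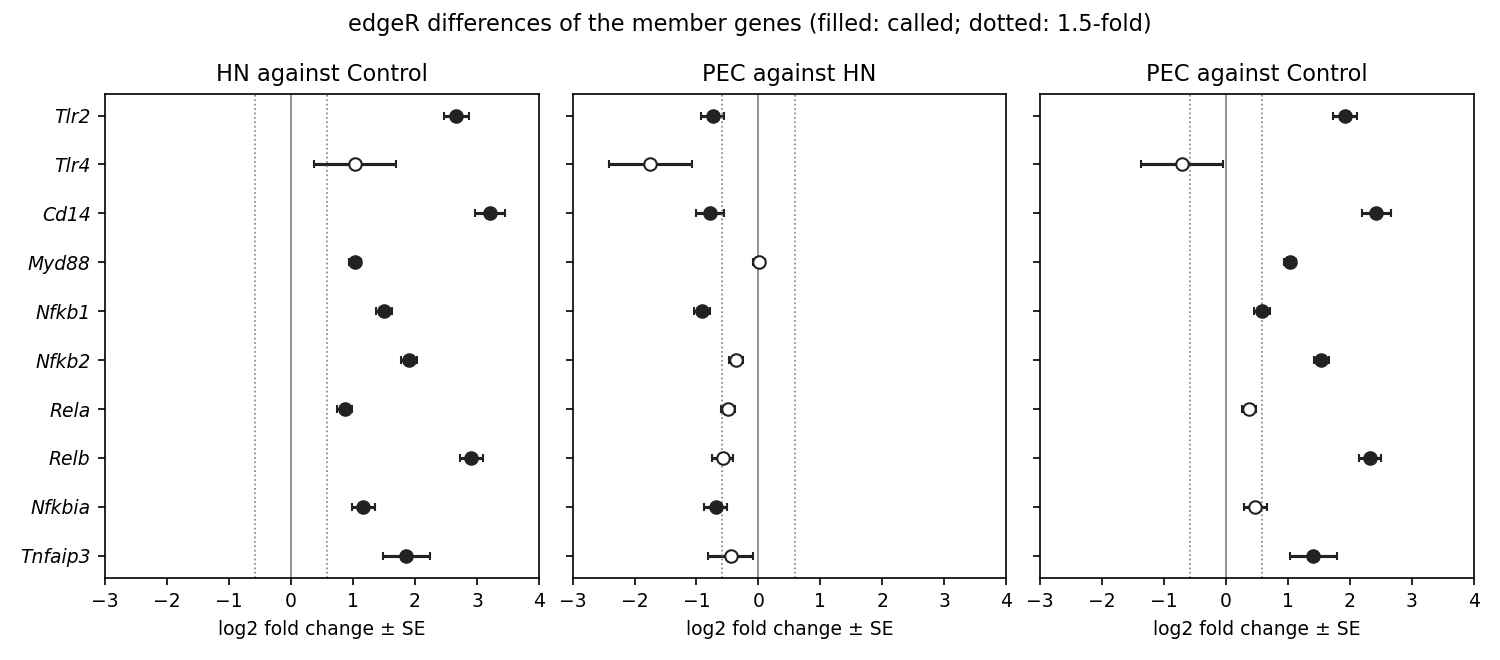
Log2 fold changes with standard errors of the 10 members in each comparison, from edgeR over all 9 libraries (3 mice per group). Filled points were called and dotted lines mark a 1.5-fold change. All points lie to the right of 0 in HN against Control, and 9 of 10 lie to the left in PEC against HN, where Myd88 is at 0.01 with a sign that turns under other scalings.

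Tlr2 (ENSMUSG00000027995, chromosome 3 of GRCm38 from 83836272 to 83841767) encodes a surface receptor for bacterial lipoproteins. It was at 1.11, 1.31 and 0.87 FPKM in Control 2, 4 and 5, at 11.8, 9.51 and 8.83 in HN 4, 8 and 12, and at 4.71, 4.58 and 6.24 in PEC 1, 2 and 3. The groups did not overlap, with every PEC mouse between the Control and the HN mice, and HN 4 was the highest of all. In HN the gene rose by 2.67 ± 0.20 on the log2 scale (SE, 6.35-fold, edgeR adjusted p = 1.18e-05), in 3 of 3 mice. With PEC it fell by 0.74 ± 0.19 against HN (edgeR adjusted p = 0.0128), in 3 of 3 mice, and it was still 3.80-fold above Control (log2 1.93, adjusted p = 7.06e-05 in edgeR). Without HN 4 the difference between PEC and HN was -0.59 with an edgeR adjusted p that rounds to 0.05, and was no longer called.

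Cd14 (ENSMUSG00000051439, chromosome 18 from 36725067 to 36726798), the coreceptor that carries lipopolysaccharide to Tlr4 and lipoproteins to Tlr2, is much used as a monocyte marker. Its FPKM was 4.21, 4.85 and 2.48 in Control 2, 4 and 5, 54.5, 54.0 and 44.6 in HN 4, 8 and 12, and 20.9, 25.5 and 30.5 in PEC 1, 2 and 3. Again the groups did not overlap, and PEC mice lay between the others. The rise in HN, of 3.21 ± 0.24 on the log2 scale (9.22-fold, edgeR adjusted p = 1.28e-05), was the largest among the members and was seen in 3 of 3 mice. PEC mice were lower than HN mice by a log2 difference of -0.78 ± 0.22 (edgeR adjusted p = 0.0227), in 3 of 3 mice, and 5.38-fold above Control. This call was lost without HN 4, HN 8, PEC 1 or PEC 2, with an adjusted p of 0.0563 to 0.0765 in edgeR and differences of -0.65 to -0.78. In whole kidney, a change in the number of cells that carry a transcript and a change in the transcript per cell cannot be told apart.

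Tlr4 (ENSMUSG00000039005, chromosome 4 from 66827584 to 66930284) encodes the receptor for lipopolysaccharide. It was at 1.02, 1.21 and 0.77 FPKM in Control 2, 4 and 5, at 4.41, 3.97 and 0.40 in HN 4, 8 and 12, and at 0.83, 0.68 and 0.77 in PEC 1, 2 and 3. HN 12 was the lowest of all 9 mice, with 184 counts against 2014 and 1988 in HN 4 and 8, while those 2 HN mice were above every Control and PEC mouse. The log2 fold change was 1.03 ± 0.66 for HN against Control (edgeR adjusted p = 0.252), with 2 of 3 HN mice above every Control. It was -1.74 ± 0.67 for PEC against HN (adjusted p = 0.0693 in edgeR) and -0.71 ± 0.66 for PEC against Control (adjusted p = 0.409), and none of these was called. Without HN 12 all of them were called, at 1.55 (edgeR adjusted p = 5.34e-04), -2.27 (adjusted p = 2.85e-04) and -0.72 (adjusted p = 0.0123). With all libraries, the difference between PEC and HN was also called by DESeq2, at an adjusted p of 0.0113, in edgeR with total-count scaling, at 0.0464, and at an unadjusted p. Of 13473 genes with a mean of at least 1 FPKM, 19 were at least 5-fold below both other HN mice in HN 12, against 5 to 43 such genes in each of the other 8 libraries. Tlr4 was the only member among these genes in any of the 9 libraries. Why HN 12 was low was not tested.

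**Figure D2:**
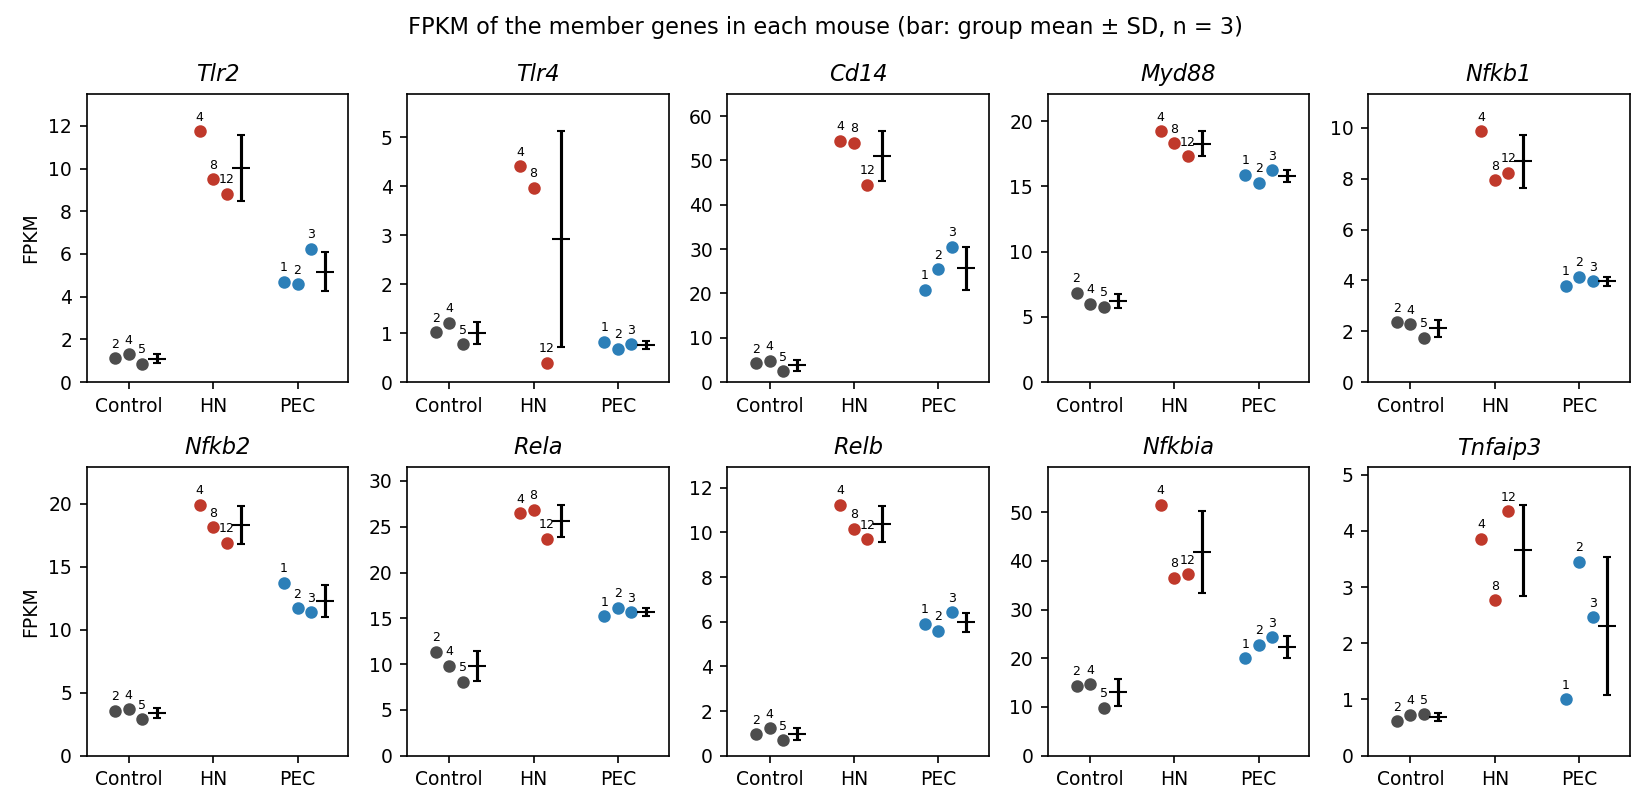
FPKM of each member in each mouse, with replicate numbers beside the points and the mean ± SD of each group (n = 3) as a bar. HN mice lie above all Control mice in 9 panels, and in the panel of Tlr4 the mouse HN 12, at 0.40, lies below all Control mice. FPKM lifts the bulk of genes in HN too, with a median shift of 0.35 against Control on log2(FPKM + 1). How many of all genes have every HN mouse above every Control mouse is not given, so the 9 panels have no background beside them.

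Myd88 (ENSMUSG00000032508, chromosome 9 from 119335934 to 119340041) encodes the adaptor shared by most Toll-like receptors and the interleukin-1 receptor. Its levels were 6.84, 6.01 and 5.78 FPKM in Control 2, 4 and 5, 19.2, 18.3 and 17.3 in HN 4, 8 and 12, and 15.9, 15.3 and 16.2 in PEC 1, 2 and 3. Replicates were close, and both diseased groups lay far above Control. The gene rose by 1.03 ± 0.10 in HN (2.04-fold, edgeR adjusted p = 3.63e-05) and by 1.03 ± 0.10 in PEC mice against Control (adjusted p = 4.46e-05 in edgeR), in 3 of 3 mice each. Between PEC and HN the log2 fold change was 0.01 ± 0.09 (edgeR adjusted p = 0.966). The FPKM of PEC and HN mice did not overlap, whereas their TMM-scaled values did, and the sign of this difference turned under other scalings, to -0.19 with total counts. Myd88 overlaps Acaa1a (mean 21.5 FPKM over all mice) on the opposite strand. Since the counting is not stated to use strand, reads of the shared stretch could belong to either gene.

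Among the subunits, Nfkb1 and Nfkb2 encode precursors that are processed to DNA-binding proteins, and Rela and Relb encode partners with a transactivation domain. Nfkb1 and Rela belong to the classical arm of the pathway and Nfkb2 and Relb to the noncanonical arm. All of these subunits were called higher in HN, where 17.7% of all tested genes were. They rose in 3 of 3 mice each, with no overlap between HN and Control. The share of all genes without such overlap is not given, so this has no background beside it. Relb (ENSMUSG00000002983, chromosome 7 from 19606217 to 19629438) was at 0.97, 1.22 and 0.68 FPKM in Control 2, 4 and 5, at 11.2, 10.2 and 9.68 in HN 4, 8 and 12, and at 5.90, 5.59 and 6.42 in PEC 1, 2 and 3. It had the lowest level of these subunits in Control and, of them, the largest rise in HN, 2.91 ± 0.19 on the log2 scale (7.50-fold, edgeR adjusted p = 6.04e-06). PEC mice lay between the other groups without overlap. The difference from HN, -0.58 ± 0.17 (edgeR adjusted p = 0.0267), was just short of 1.5-fold and was called in 5 of 9 fits with a mouse left out, as well as with total-count scaling and in limma.

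Nfkb2 (ENSMUSG00000025225, chromosome 19 from 46304320 to 46312385) was at 3.58, 3.67 and 2.91 FPKM in Control 2, 4 and 5, at 19.9, 18.1 and 16.9 in HN 4, 8 and 12, and at 13.7, 11.7 and 11.4 in PEC 1, 2 and 3. It rose by 1.90 ± 0.12 in HN (3.74-fold, edgeR adjusted p = 6.16e-06) and stood 2.91-fold above Control in PEC mice. PEC mice were all below HN mice, by a log2 difference of -0.36 ± 0.12 (edgeR adjusted p = 0.0386) that is smaller than 1.5-fold and was not called. Nfkb2 overlaps Psd and 4833438C02Rik on the opposite strand, at means of 0.822 and 4.31 FPKM, so that some of its reads could be theirs.

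Nfkb1 (ENSMUSG00000028163, chromosome 3 from 135584655 to 135691546) was at 2.35, 2.29 and 1.74 FPKM in Control 2, 4 and 5, at 9.87, 7.95 and 8.23 in HN 4, 8 and 12, and at 3.8, 4.15 and 3.96 in PEC 1, 2 and 3. The PEC mice were close together and nearer to Control than to HN. Nfkb1 rose by 1.5 ± 0.13 in HN (edgeR adjusted p = 2.81e-05) and fell by 0.92 ± 0.13 with PEC against HN (1.89-fold, adjusted p = 7.08e-04 in edgeR), in 3 of 3 mice each. It was the only member called lower with PEC in all 9 fits that left a mouse out, at -0.79 to -0.99. Against Control, PEC mice were higher by 0.59 ± 0.13 (edgeR adjusted p = 0.00548), a fold change at the threshold of 1.5, which was called in 4 of these 9 fits and lost without Control 5, any of the HN mice or PEC 2, at 0.48 to 0.58.

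Rela (ENSMUSG00000024927, chromosome 19 from 5637483 to 5648130) was at 11.4, 9.82 and 8.09 FPKM in Control 2, 4 and 5, at 26.5, 26.9 and 23.7 in HN 4, 8 and 12, and at 15.2, 16.2 and 15.7 in PEC 1, 2 and 3. It had the smallest rise among the called members in HN, 0.87 ± 0.12 (1.82-fold, edgeR adjusted p = 3.49e-04). PEC mice lay between the groups without overlap, but neither the difference from HN, -0.50 ± 0.12 (edgeR adjusted p = 0.00917), nor that from Control, 0.37 ± 0.12 (adjusted p = 0.0279), reached 1.5-fold. Both were called with total-count scaling, at -0.69 (edgeR adjusted p = 0.002) and 0.73 (adjusted p = 0.00119), and in limma on FPKM.

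The feedback inhibitors are themselves induced by NF-kB. Nfkbia (ENSMUSG00000021025, chromosome 12 from 55489410 to 55492647) encodes IkB-alpha, which binds NF-kB dimers and takes them back to the cytoplasm, and Tnfaip3 (ENSMUSG00000019850, chromosome 10 from 19000910 to 19015410) encodes a ubiquitin-editing enzyme that shuts off signalling upstream. RefSeq promoter windows were used for only 6 of the 10 members (Tlr2, Myd88, Nfkb2, Rela, Nfkbia and Tnfaip3). They were searched on both strands, over the 250 bases before each of their 9 start sites, for GGGNNNNNCC, a loose form of the NF-kB motif, and for the stricter kB consensus, whose matches all have the loose form too. The loose form was found for 5 of these 6 members, all but Myd88, in 8 of their 9 windows and in 45.8% of all 32851 windows. The kB consensus was found for 4 (Tlr2, Nfkb2, Nfkbia and Tnfaip3), in 5 of the 9 windows and in 5.0% of all windows. Of the windows with the consensus, those of Nfkb2 lie wholly inside the gene as bounded in the deposited data. That of Tlr2 lies inside by 159 of its 250 bases, and those of Nfkbia and Tnfaip3 by 0. The windows of the inhibitors are shown because both genes are known targets of NF-kB and both rose in HN. They are the 250 bases before the start of Nfkbia (chr12:55492648-55492897, minus strand, GRCm38) and of Tnfaip3 (chr10:19015411-19015660, minus strand), with matches to the loose form in capitals.
Nfkbia: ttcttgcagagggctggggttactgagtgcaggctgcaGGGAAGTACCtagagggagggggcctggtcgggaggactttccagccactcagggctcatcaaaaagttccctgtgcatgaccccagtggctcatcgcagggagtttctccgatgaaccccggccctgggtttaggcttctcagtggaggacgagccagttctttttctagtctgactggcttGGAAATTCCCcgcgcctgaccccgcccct
Tnfaip3: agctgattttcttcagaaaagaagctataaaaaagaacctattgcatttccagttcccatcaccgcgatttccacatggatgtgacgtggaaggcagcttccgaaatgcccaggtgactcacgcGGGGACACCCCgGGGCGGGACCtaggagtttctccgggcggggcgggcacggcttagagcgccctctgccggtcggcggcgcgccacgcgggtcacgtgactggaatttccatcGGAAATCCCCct
The Nfkbia window holds 2 matches, and GGAAATTCCC, which starts 29 bases before the start site, also fits the kB consensus. The Tnfaip3 window shown holds 4 matches, of which GGGGACACCC and GGGACACCCC overlap, and GGAAATCCCC, which starts 12 bases before the start site, fits the consensus. The other Tnfaip3 window (chr10:19011964-19012213), which is not shown, holds 2 matches to the loose form and 0 to the consensus. A match describes letters and is no evidence of binding in these kidneys.

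Nfkbia was at 14.4, 14.7 and 9.88 FPKM in Control 2, 4 and 5, at 51.5, 36.6 and 37.3 in HN 4, 8 and 12, and at 19.98, 22.8 and 24.3 in PEC 1, 2 and 3. HN 4 stood above the other HN mice, and the groups did not overlap. It rose by 1.16 ± 0.19 in HN (2.24-fold, edgeR adjusted p = 9.35e-04) and fell by 0.69 ± 0.19 with PEC against HN (1.62-fold, adjusted p = 0.0164 in edgeR), in 3 of 3 mice each. The fall was not called without HN 4 (-0.49, edgeR adjusted p = 0.052) or without PEC 1 (-0.62, adjusted p = 0.0585). PEC mice were all above Control mice, at a log2 difference of 0.47 ± 0.19 (edgeR adjusted p = 0.0634) that was not called, but was with total-count scaling (0.82, adjusted p = 0.00542 in edgeR) and in limma on FPKM and TPM.

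Tnfaip3 was at 0.61, 0.73 and 0.74 FPKM in Control 2, 4 and 5, at 3.86, 2.77 and 4.35 in HN 4, 8 and 12, and at 1.01, 3.45 and 2.46 in PEC 1, 2 and 3. PEC 1 was close to Control, PEC 2 was above HN 8, and the PEC and HN groups overlapped. The gene rose by 1.86 ± 0.38 in HN (3.63-fold, edgeR adjusted p = 0.0038) and was higher in PEC than in Control mice by 1.41 ± 0.38 (adjusted p = 0.0136 in edgeR), in 3 of 3 mice each. Between PEC and HN the log2 fold change was -0.45 ± 0.37 (edgeR adjusted p = 0.371), with 2 of 3 PEC mice below every HN mouse. Without Control 2, HN 12 and PEC 3, the libraries highest in adipocyte markers (a choice made after seeing the data), neither rise was called, at 1.65 (edgeR adjusted p = 0.0609) and 1.29 (adjusted p = 0.111), with 2 mice left per group.

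Per length, Nfkbia was the most abundant member in Control, at 13.0 ± 2.68 FPKM (SD, n = 3), ahead of Rela at 9.75 ± 1.63, and their ranges overlapped. Myd88 followed at 6.21 ± 0.558, then Cd14 and Nfkb2, which overlapped at 3.85 and 3.39, and Nfkb1 at 2.13 ± 0.336. Tlr2, Tlr4, Relb and Tnfaip3 formed the low end, at means of 0.693 to 1.10 FPKM, and each overlapped its neighbour in the order. In HN, Cd14 led at 51.0 ± 5.60 FPKM, followed by Nfkbia at 41.8 ± 8.45, with overlapping ranges. Rela at 25.7 ± 1.74 was below both, and Nfkb2 and Myd88, at 18.3 ± 1.52 and 18.3 ± 0.950, could not be ordered. Relb, Tlr2 and Nfkb1, at means of 8.68 to 10.4 FPKM, overlapped from each to the next, and Tnfaip3 and Tlr4 came last and overlapped. In PEC mice Cd14 (25.6 ± 4.82) and Nfkbia (22.3 ± 2.19) again led and overlapped, Myd88 and Rela overlapped at 15.8 and 15.7, and Nfkb2 was below them at 12.3. Relb and Tlr2 overlapped at 5.97 and 5.18, Nfkb1 was lower at 3.97 ± 0.175, and Tnfaip3 (2.31 ± 1.23) and Tlr4 (0.760 ± 0.0755) again came last.

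Ratios of FPKM within a mouse do not depend on how libraries are scaled. They were chosen after values had been seen and are given as a description, with no test. Nfkb2 over Nfkb1 was 1.6 ± 0.0746 (SD, n = 3 here and below) in Control mice, 2.12 ± 0.143 in HN mice and 3.10 ± 0.444 in PEC mice, with no overlap between groups. Relb over Rela was 0.0979 ± 0.0228 in Control mice, 0.404 ± 0.0234 in HN mice and 0.381 ± 0.0323 in PEC mice, and HN and PEC overlapped. The noncanonical subunit was thus higher relative to its classical counterpart in every diseased mouse than in any Control. For the receptor and its coreceptor, Tlr2 over Cd14 was 0.295 ± 0.0486, 0.197 ± 0.0198 and 0.203 ± 0.0230 in Control, HN and PEC mice, and HN and PEC overlapped. Tnfaip3 over Nfkbia, at 0.0557 ± 0.0170, 0.0891 ± 0.0239 and 0.101 ± 0.0505, overlapped among all groups, Control and HN only at 0.0749 in Control 5 and HN 4.

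For each member, the genes with the most similar pattern over the 9 mice were sought among 13448 tested genes with a mean of at least 1 FPKM, by the root mean square difference of centred log2 CPM (counts scaled by library size and TMM factor). These values were centred but not scaled, so the distance also depends on the size of a gene's changes and on its scatter between replicates. It does not rank the members by how far their pattern is shared. Rela had the closest neighbours, Fhl3, Rhoj and Myo9b, at 0.05 to 0.07. For Myd88 they were Sulf2, Mapkapk3 and Tmem171 (0.08 to 0.10), and for Nfkb1 Rhob, Man1c1 and Dkk3 (0.09 to 0.11). Cd14 was nearest to Ccl6, Fcgr3 and Fam167a (0.10 to 0.13), the first a chemokine and the second an Fc receptor of myeloid cells. Tlr2 was nearest to Pltp, Rab7b and Lbp (0.14 to 0.15), and Lbp, the lipopolysaccharide-binding protein, works with Cd14. Relb was nearest to Alox5ap, Fam167a and Csf2rb2 (0.12 to 0.15), Nfkb2 to Pea15a, Tuba1a and Sbno2 (0.11 to 0.13), and Nfkbia to Pxdc1, Itgb3 and Zfp36l1 (0.11 to 0.12). Tnfaip3 (Rrm2, Rftn1 and Itga5, 0.34 to 0.36) and Tlr4 (Dnajb4, Mt1 and Mt2, 0.65 to 0.70) had no gene as close, the latter with HN 12 among the 9 mice.

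The other genes of the pathway were taken from 9 lists of 96 genes, of which 95 were tested. Against Control, 56 were called higher and 4 lower in HN (edgeR), with a median log2 fold change of 1.5 against -0.001 for all tested genes, of which 17.7% and 14.7% were called higher and lower. With PEC, 3 were called higher and 25 lower than in HN, with a median of -0.36 against -0.02, beside 13.4% and 15.3% of all genes. PEC against Control gave 49 higher and 9 lower, with a median of 0.92 against 0.05, beside 18.9% and 17.4%. These shares of all genes are also those to set beside the edgeR counts of each list below. In PEC against Control 5 were lower with total-count scaling, 4 in limma on FPKM and 5 on rescaled FPKM (TPM). With total-count scaling there were 70 calls upward and 3 downward for HN against Control, and 0 upward and 37 downward for PEC against HN. On TPM the latter were 0 and 61 of 90, and for HN against Control 81 and 1. All genes moved on TPM too, with a median of 0.72 for HN against Control and -0.51 for PEC against HN. On TPM 10200 genes were called higher in HN, and the TPM counts of each list below are to be read beside this shift. Leaving out single mice gave 18 to 27 lower in PEC than in HN.

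**Figure D3:**
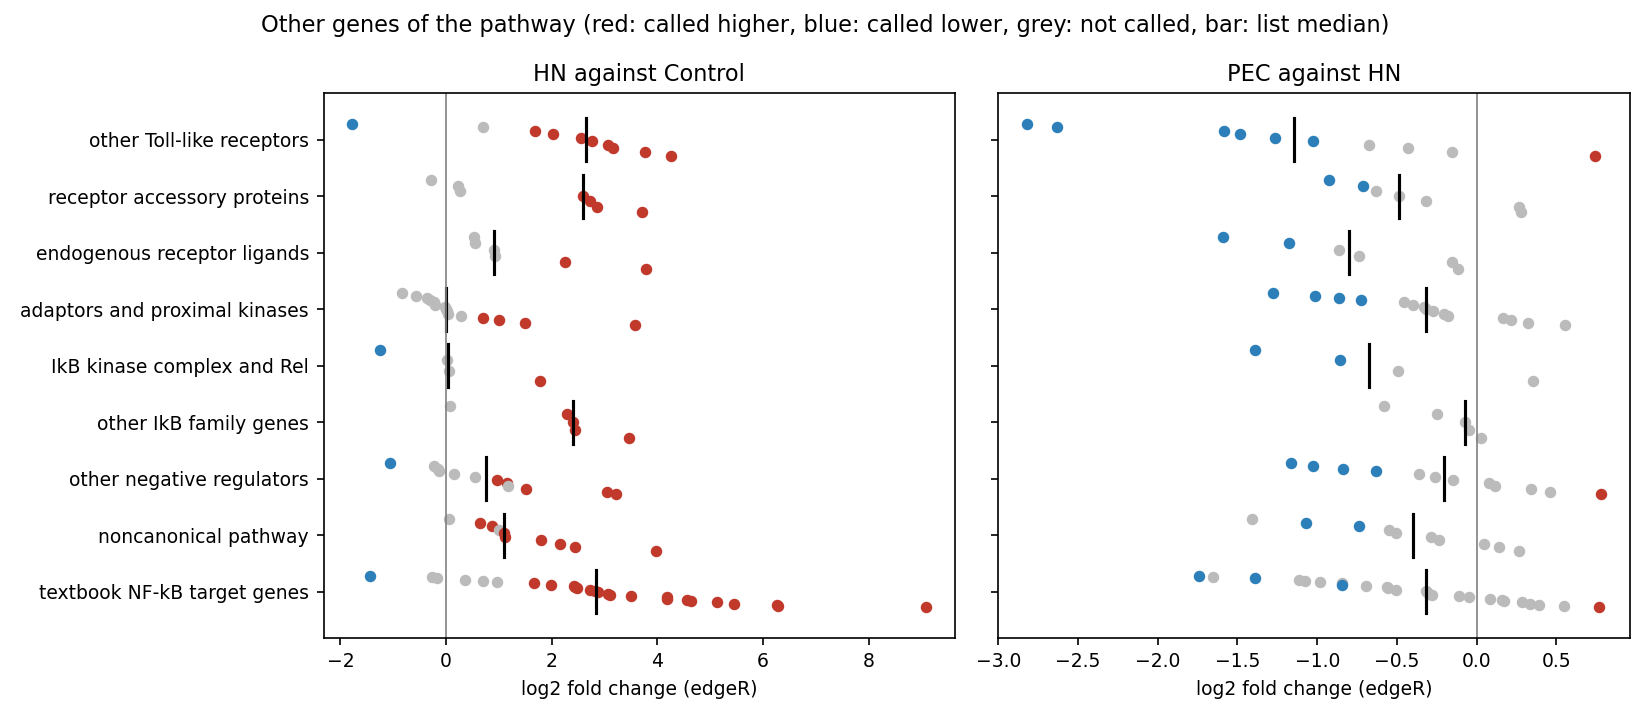
Log2 fold changes (edgeR) of the 95 tested genes of the other pathway lists, with called genes in colour and the median of each list as a bar. Most points lie to the right in HN against Control, with few genes called lower, and the receptor list reaches furthest to the left in PEC against HN. The point furthest to the right is Il6, which had no counts in Control, so that its position depends on the small count that edgeR adds.

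Of 10 other Toll-like receptors, 8 were called higher and 1 lower in HN, and 1 higher and 6 lower with PEC against HN (edgeR). The highest rises were those of Tlr8, Tlr9, Tlr13 and Tlr1, by 4.26, 3.77, 3.17 and 3.06 on the log2 scale. Tlr8 and Tlr9, endosomal receptors for nucleic acids, were at 2.77 ± 0.864 and 3.56 ± 1.88 FPKM in HN (SD, n = 3). With PEC they fell by 2.82 (edgeR adjusted p = 2.92e-04) and 2.63 (adjusted p = 0.00173), to 0.337 ± 0.116 and 0.490 ± 0.193 FPKM, in 3 of 3 mice each. Tlr1, a partner of Tlr2, was not called between PEC and HN (-0.15, edgeR adjusted p = 0.591), nor were Tlr6 (-0.68) and Tlr11 (-0.43). Tlr3 was not called in HN (0.70, edgeR adjusted p = 0.111) but was without Control 5 and with total-count scaling. Tlr12 went the other way, with 9.78 ± 0.743 FPKM in Control mice, 4.15 ± 0.977 in HN mice and 5.95 ± 0.488 in PEC mice. It fell by 1.77 in HN (edgeR adjusted p = 2.77e-05) and rose by 0.74 with PEC (adjusted p = 0.00484), a rise not called without HN 4 or with total-count scaling, which called 0 receptors higher. Leaving out single mice gave 3 to 6 receptors lower with PEC.

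Of 7 accessory proteins, 4 were called higher in HN (Ly86 by 3.70, Cd180 by 2.85, Lbp by 2.73 and Unc93b1 by 2.59 on the log2 scale), and Ly96, Cnpy3 and Hsp90b1 were not, at 0.23, 0.27 and -0.28. With total-count scaling and in limma on FPKM 6 of the 7 were higher in HN, and on rescaled FPKM all 7. Ly96, which binds lipopolysaccharide together with Tlr4, averaged 2.54 ± 0.291 FPKM in Control mice, 4.34 ± 0.376 in HN mice and 4.52 ± 1.42 in PEC mice. With PEC, Lbp and Unc93b1, which takes nucleic acid receptors to endosomes, fell by 0.93 and 0.71 against HN (edgeR adjusted p = 0.00145 and 0.00195). The other 5 accessory genes were not called, from -0.63 for Ly86 to 0.28 for Ly96, with Cd180 at -0.32, Hsp90b1 at -0.49 and Cnpy3 at 0.26, but 4 of the 7 were lower with total-count scaling, in limma on FPKM and on rescaled FPKM.

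Of 6 genes of endogenous ligands, Tnc and Bgn, matrix proteins, rose in HN by 3.79 and 2.25. Hmgb1, S100a8, S100a9 and Vcan were not called, at 0.56, 0.91, 0.92 and 0.54, but 5 of the 6 genes were called with total-count scaling. With PEC, Tnc fell by 1.18 and Vcan by 1.59 against HN (edgeR adjusted p = 2.91e-04 and 0.00665), while Bgn at -0.16, Hmgb1 at -0.87, S100a8 at -0.74 and S100a9 at -0.12 were not called. On rescaled FPKM 6 of the 6 were higher in HN and 5 lower with PEC.

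Of the adaptors and proximal kinases 4 of 15 were called higher and 0 lower in HN, with a median of 0.01. The count of 4 was 6 with total-count scaling and 11 on rescaled FPKM, and the count of 0 lower was 1 at an unadjusted p, 1 in DESeq2 and 0 in limma. Those that rose were Ticam2 (3.58), Ikbke (1.5), Tirap (1.00) and Irak4 (0.71). With PEC, 4 were called lower, led by Tirap, which bridges receptors to Myd88 (-1.28, edgeR adjusted p = 0.00223), and Ticam2 (-1.02, adjusted p = 0.0207), whose call was lost without HN 8, HN 12, PEC 1 or PEC 3. Lower with PEC were 6 of the 15 with total-count scaling and 11 on rescaled FPKM. Of the IkB kinase complex and Rel, Rel rose by 1.78 in HN and Chuk fell by 1.25, from 37.8 ± 2.58 to 22.9 ± 1.68 FPKM (edgeR adjusted p = 9.58e-06), while Ikbkb and Ikbkg stood at 0.03 and 0.05. On rescaled FPKM 3 of these 4 were called higher and 0 lower in HN. With PEC, Ikbkg fell by 1.39 and Rel by 0.86 (edgeR adjusted p = 0.00466 and 0.00913), and Chuk at -0.49 and Ikbkb at 0.35 were not called.

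Of 5 other IkB family genes, Nfkbid, Nfkbiz, Nfkbie and Bcl3 rose in HN by 3.46, 2.45, 2.4 and 2.28, and Nfkbib was not called at 0.07. Between PEC and HN 0 of the 5 were called in edgeR, also at an unadjusted p, in DESeq2, in limma on FPKM and with total-count scaling. Their log2 differences were -0.58 for Nfkbie, -0.25 for Bcl3, -0.07 for Nfkbiz, -0.05 for Nfkbib and 0.03 for Nfkbid. On rescaled FPKM 4 of these 5 were called lower. Of 12 other negative regulators, 5 rose in HN, led by Tnip3 (3.22), Tnfaip8l2 (3.05), Irak3 (1.52) and Zc3h12a (1.16), although Tnip3 was at only 0.12 ± 0.020 FPKM, and on rescaled FPKM 9 of 10 were higher. Sigirr, a receptor that dampens signalling, fell by 1.05 in HN (edgeR adjusted p = 2.2e-05) and rose by 0.78 with PEC (adjusted p = 2.26e-04), with 15.2 ± 1.55, 10.6 ± 0.668 and 15.7 ± 0.841 FPKM in Control, HN and PEC mice. Neither call was made with total-count scaling, where 0 of the 12 were lower in HN and 0 higher with PEC. Lower with PEC were 4 of the 12, led by Cyld (-1.16) and Tnfaip8l2 (-1.02), also 4 with total-count scaling, 6 of 10 on rescaled FPKM and 2 to 4 with a mouse left out.

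In the noncanonical arm 8 of 10 genes rose in HN, led by the ligand Ltb (3.98), Birc3 (2.44), the receptor Cd40 (2.16) and the ligand Tnfsf13b (1.80), and Traf3 and Ltbr were not called, at 1.00 and 0.07. With PEC 2 of the 10 were called lower, beside 15.3% of all genes, Ltb by a log2 difference of -1.07 and Tnfrsf11a by -0.74 (edgeR adjusted p = 0.0184 and 0.00801). The call of Ltb was lost without HN 8 or PEC 1 and that of Tnfrsf11a without HN 8, and single mice left out gave 1 to 3 lower. With total-count scaling 5 of the 10 were lower with PEC, in limma on FPKM 4 and on rescaled FPKM 7.

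Of 27 textbook target genes of NF-kB 26 were tested, and 20 rose and 1 fell in HN, with a median of 2.85. Lcn2 rose by 6.28 and C3 by 6.27 on the log2 scale, to 150.9 ± 21.8 and 224.3 ± 16.8 FPKM in HN, and Ccl20 rose by 5.46. Il6 had no counts in any Control mouse and was at least 56.1-fold higher in HN, with 249 counts over the 3 HN mice set against a floor of 3 counts over the 3 Control mice. The list's median is the same with Il6 at this bound. Sele, Ptgs2, Bcl2l1, Plau and Ier3 were not called in HN, at 0.97, 0.37, -0.26, -0.17 and 0.70, and Csf2 was not tested. With PEC, 3 of the 26 were called lower than in HN, where 15.3% of all tested genes were, the adhesion molecules Sele (-1.74) and Vcam1 (-0.84) and the protease Mmp9 (-1.39), with edgeR adjusted p = 0.0212, 0.00223 and 0.0215. The call of Sele was lost without HN 4 or any of the PEC mice, and that of Mmp9 without HN 4, HN 12 or PEC 1. C3 at 205.0 ± 14.9 and Lcn2 at 125.8 ± 74.5 FPKM in PEC mice were not called against HN, at 0.09 and -0.05. Sod2, a mitochondrial superoxide dismutase, fell by 1.44 in HN and rose by 0.77 with PEC (edgeR adjusted p = 1.72e-05 and 9.13e-04), a rise not called with total-count scaling, and on rescaled FPKM 0 targets were lower in HN. Vcam1 was named after its value was seen. The number of targets lower with PEC was 6 with total counts, 8 in limma on FPKM and 14 of 24 on rescaled FPKM, and ranged from 1 to 7 with a mouse left out.

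Marker genes of the cells a kidney can hold were called between groups in some lists, and in few or no genes of others. The summed FPKM of 9 macrophage and monocyte markers was 26.6 to 27.8 in Control mice, 638.8 to 709.0 in HN mice and 263.8 to 314.5 in PEC mice, led by Lyz2 (here and below by the mean over all 9 mice, which need not hold in each group). Lyz2 alone averaged 557.1 FPKM in HN mice and 226.6 in PEC mice, most of the sum. In HN 8 of these 9 were called higher (edgeR), and with PEC 5 were called lower than in HN, among them Adgre1 (-2.07) and Mrc1 (-1.83). The 4 not called with PEC were Cd68 (-0.19), Cx3cr1 (-0.21), Aif1 (-0.65) and Ly6c2 (-0.84). All of these but Lyz2 were named after their values were seen. On rescaled FPKM 9 of 9 were lower with PEC. Cd14 over Lyz2 was 0.263 ± 0.0716 in Control mice, 0.0914 ± 0.00646 in HN mice and 0.113 ± 0.0136 in PEC mice, so that Lyz2 rose more than Cd14. The 6 T cell markers summed to 1.16 to 1.29 FPKM in Control mice, 8.03 to 15.1 in HN mice and 4.89 to 6.37 in PEC mice, led by Cd4, and 6 of 6 were higher in HN and 2 lower with PEC. The latter count was 4 with total-count scaling and 5 on rescaled FPKM, and 0 without HN 8, HN 12 or PEC 1 and 1 without HN 4, PEC 2 or PEC 3. Of B cell markers (led by Cd79b) 2 of 4 were higher in HN, and 1 without Control 2, Control 4 or any of the HN mice. Of dendritic cell markers (led by Itgax) 3 of 5 were higher in HN, and 5 of 5 on rescaled FPKM. Between PEC and HN 0 of either were called in edgeR and in limma on FPKM, but 1 dendritic cell marker was higher at an unadjusted p and in DESeq2, and 2 of each list were lower on rescaled FPKM. Neutrophil markers, led by Cxcr2, were low, at 0.25 to 2.56 summed FPKM in any mouse. Mpo, Elane and Camp stayed below 0.1 FPKM in all mice, Ly6g, Mpo, Elane and Camp had no counts in Control, Ngp had none in HN and PEC mice, and of the 2 tested markers Cxcr2 was higher in HN.

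Among kidney cell markers, some lists were called in most of their genes and others in few or none. All 5 proximal tubule markers fell in HN and rose with PEC, their sum being 1061 to 1149 FPKM in Control mice, 342.7 to 348.0 in HN mice and 464.5 to 770.4 in PEC mice, led by Slc34a1. Higher with PEC were 3 of these 5 with total-count scaling, 3 in limma on FPKM and 1 on rescaled FPKM, and 3 without HN 8, PEC 1 or PEC 2. Injured tubule markers, led by Havcr1, summed to 2.23 to 4.79, 361.7 to 405.7 and 160.1 to 285.9 FPKM, with 4 of 4 higher in HN and 2 lower with PEC. Vcam1, which was among those lower with PEC, is also in the list of NF-kB targets. Fibroblast and mural cell markers, led by Acta2, summed to 33.5 to 39.6, 193.2 to 207.7 and 115.7 to 133.5 FPKM, with 5 of 5 higher in HN and 3 lower with PEC. Of 5 other tubule markers (led by Umod) 4 were lower in HN and 2 higher with PEC, but 2 were lower and 1 higher in HN with total-count scaling, 0 and 1 on rescaled FPKM, and 2 were lower without Control 5. On rescaled FPKM 0 of them were higher and 1 lower with PEC. Of 4 endothelial markers (led by Emcn) 1 was lower in HN and 1, Emcn, higher with PEC (0.59), and both directions depended on the scaling. In HN 0 were lower and 1 higher with total-count scaling, and 3 higher on rescaled FPKM. With PEC 0 were higher with total-count scaling and 2 lower on rescaled FPKM, and Emcn was called in 3 of 9 fits with a mouse left out, the call being kept without HN 4, PEC 1 or PEC 2. None of 3 podocyte markers (led by Podxl) and none of 3 tested adipocyte markers (led by Cfd) was called in edgeR in HN or with PEC, also at an unadjusted p, in DESeq2 and in limma on FPKM, but 1 podocyte marker was higher in HN with total-count scaling, and 3 were, with 1 lower with PEC, on rescaled FPKM. What part the mix of cells plays in the members' values was not tested.

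**Figure D4:**
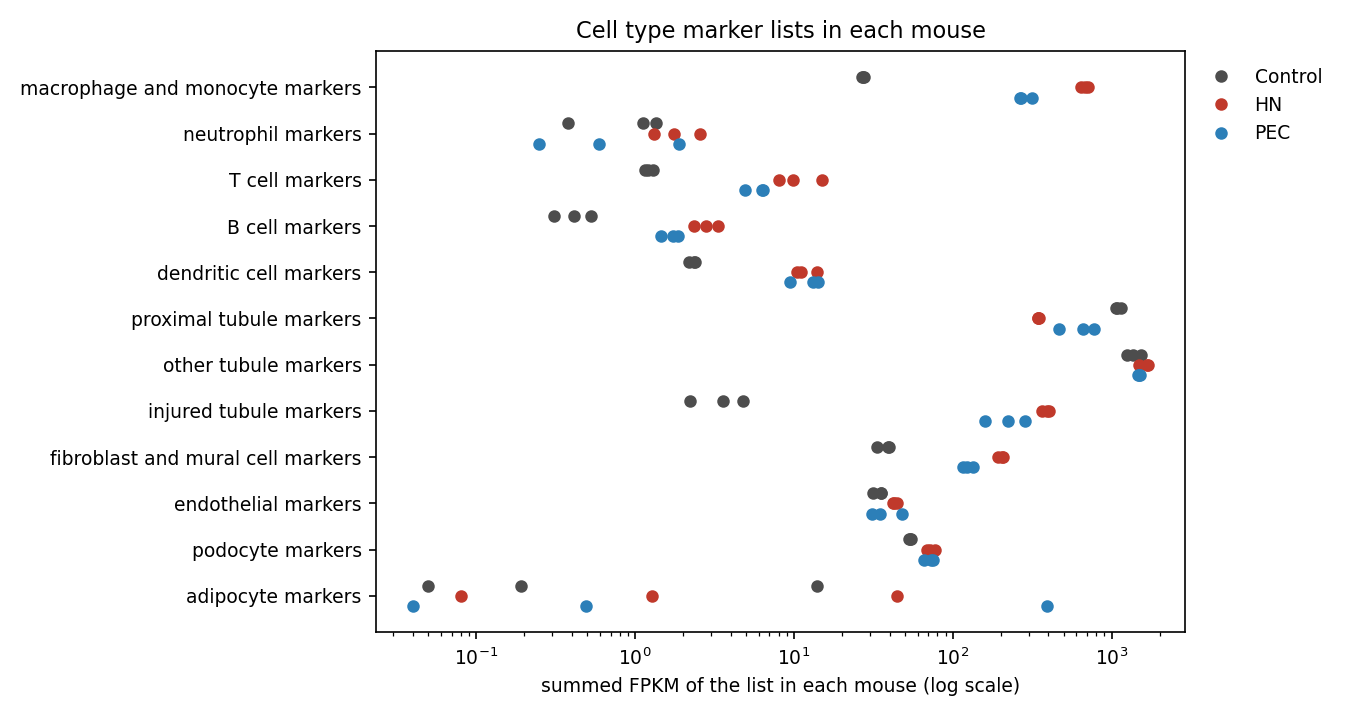
Summed FPKM of each marker list in each mouse, on a log scale, with colours for Control, HN and PEC mice. Macrophage and monocyte markers lie at 26.6 to 27.8 in Control and 638.8 to 709.0 in HN mice, and the adipocyte list is spread widely within each group, up to 392.7 in PEC 3.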

How the data were processed

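The authors deposited, for 55385 genes in each of 9 kidney libraries, whole-number counts with no normalization and FPKM computed from these counts, gene lengths and library totals. The labels name Bowtie and the builds mm8 and mm9, whereas the coordinates in this table are those of GRCm38, so that it is not known whether the aligner named made this table. Its counting program is not given in the sources used here. Counts were fitted with edgeR 4.0.16 in R 4.3.3 (TMM, filterByExpr, glmQLFit and glmQLFTest), in a single fit over the 9 libraries, with Benjamini-Hochberg adjustment over the 21392 genes tested. This test was preferred to limma, since the table holds counts. Calls needed a 1.5-fold or larger difference and an adjusted p of at most 0.05. Standard errors were taken from the fold change and the F statistic.

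Named genes are the 10 members, and of each pathway list the up to 4 genes with the largest change among those called in HN against Control and the up to 2 in PEC against HN. Named too are genes called against most of their list and, where 5 or fewer were not called, those. Of each marker list, the gene most abundant over all mice and those at 0 are named, and of each member the 3 genes nearest in pattern. The pathway lists are other Toll-like receptors, receptor accessory proteins, endogenous receptor ligands, adaptors and proximal kinases, the IkB kinase complex and Rel, other IkB family genes, other negative regulators, the noncanonical pathway and textbook NF-kB target genes. Members and lists were chosen with earlier results of these data known.

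Alternatives were DESeq2 size factors, total-count scaling, DESeq2 1.42.0, limma 3.58.1 on log2(FPKM + 1), log2(TPM + 1) and log2(FPKM + 0.1) for genes with a mean of at least 0.5, no filter, fits of only the groups compared, offsets for gene length and GC content, other call rules and each mouse left out. Leaving out the library of each group highest in adipocyte markers was added after seeing the data, and the offsets were centred within each library after a first version without centring had been seen. The fits were tested on simulated counts. They recovered most large changes at high counts but few at low counts, and the test's criterion was limited to high counts after this was seen, so that a gene with few counts can go uncalled although it changed. Promoters are from RefSeq (GRCm38).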

Additional observations from a re-analysis of the deposited data

How the results depend on the processing

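Of the members' log2 fold changes under all alternatives, 216 in HN against Control, 173 in PEC against HN and 201 in PEC against Control kept their direction and their side of the threshold. Calls were lost in 2, 11 and 8 and gained in 2, 24 and 11. Reversed were 12, all of Myd88 in PEC against HN, where the main value is 0.006 and the cause was not tested. These were -0.19 with total counts, -0.20, -0.56 and -0.21 in limma on log2(FPKM + 1), log2(TPM + 1) and log2(FPKM + 0.1), -0.024 with no filter, -0.27 with length and GC offsets and -0.045 without the libraries highest in adipocyte markers, an alternative chosen after seeing the data. With single mice left out they ranged from -0.053 to 0.061 and included -2.47e-04, -2.84e-04, -0.0081 and -0.0030.

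Members lower in PEC than in HN numbered 4, and 7 with total counts, 8 in limma on TPM, 7 with no minimum fold change, 0 at a fold change of at least 2 (which can only remove calls) and 1 to 6 with a mouse left out. All genes lower there numbered 3266, and 4631 with total counts and 7679 in limma on TPM, and the median of all genes was -0.02, -0.21 and -0.51. Members lower in PEC than in Control numbered 0, and 1 in a fit of only these groups and 0 to 1 with a mouse left out. Other counts of members stayed within 1.5 times.

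All genes higher in HN than in Control numbered 3777, and 7707 with total counts, 10200 in limma on TPM and 5906 on log2(FPKM + 0.1). Those lower numbered 3154, and 1287 with total counts, 1024 on log2(FPKM + 1), 672 on TPM, 1191 on log2(FPKM + 0.1) and 1902 at a fold change of at least 2. Higher in PEC than in HN were 2875, and 1356 on log2(FPKM + 1), 1119 on TPM, 1683 on log2(FPKM + 0.1) and 1771 at a fold change of at least 2. Lower, beside the numbers above, were 1823 at a fold change of at least 2. Higher in PEC than in Control were 4053, and 6414 with total counts. Lower were 3731, and 1962 with total counts, 1485 on log2(FPKM + 1), 1711 on TPM, 1919 on log2(FPKM + 0.1) and 2089 at a fold change of at least 2. Of all calls, 54.5% were higher in HN than in Control, 46.8% in PEC than in HN and 52.1% in PEC than in Control, and with total counts 85.7%, 29.6% and 76.6%. On log2(FPKM + 1) these shares were 81.9%, 28.6% and 70.7%, on log2(FPKM + 0.1) 83.2%, 28.4% and 70.9%, and on TPM 93.8%, 12.7% and 74.5%. The cause was not tested beyond the shift of all genes that each scaling gives.

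No paired analysis was made, because each library is from a separate mouse and the labels link no mice between groups. The groups compared share fewer than 2 replicate numbers, and these are not known to mark pairs. Floors cover counting error only, and by the call rule a difference under 1.5-fold was not called whatever its p.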
